A study of Arabidopsis thaliana with 12 samples.

Results

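The genes described here encode subunits of RNA polymerase IV (Pol IV) and RNA polymerase V (Pol V) in Arabidopsis thaliana, and were taken by name as a set of 7 of the 64791 features in the expression table. They are NRPD1 (AT1G63020), NRPE1 (AT2G40030), NRPD2 (AT3G23780), NRPD4 (AT4G15950), NRPE5 (AT3G57080), NRPD7 (AT3G22900) and NRPE7 (AT4G14660). Their transcripts were measured by mRNA sequencing in 2-week-old seedlings of 4 genotypes with 3 libraries each. These were pkl, carrying the strong loss-of-function allele pkl-1 of the chromatin remodeler gene PICKLE, nrpd1, carrying nrpd1-3 in the gene of the largest Pol IV subunit, nrpe1, carrying nrpe1-11 in the gene of the largest Pol V subunit, and wild type (WT, Columbia). No genotype received a treatment, and all seedlings were raised on plates. The comparisons ask how each mutation altered the transcripts of the polymerases themselves.

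Pol IV and Pol V are plant enzymes descended from RNA polymerase II (Pol II) that act in RNA-directed DNA methylation (RdDM). Pol IV makes the precursors of small interfering RNAs, and Pol V makes scaffold transcripts at the target loci, where small RNAs bound to ARGONAUTE proteins guide methylation of cytosines. Each enzyme has its own largest subunit, both share a second largest subunit, and the remaining small subunits are either copies particular to Pol IV or Pol V or are the same proteins that Pol II uses.

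The shallowest library, nrpe1 replicate 2, held 7204299 reads, and the other 11 held 15242073 to 21475250. Leaf genes were abundant in all libraries, with CAB1 at 12050 RPKM or more (RPKM are reads scaled by feature length and library total), and the root gene CASP1 lay between 19.0 and 31.5 RPKM. The floral genes AP3 and AG did not exceed 0.803 RPKM. The root hair gene COBL9 stood apart in nrpd1 with 0.176 to 0.396 RPKM, against 2.01 to 2.40 RPKM in WT, and the seed storage gene CRU1 reached 3.54 RPKM in pkl replicate 1 but at most 0.210 RPKM in the other 11 libraries. Another seed storage gene, CRU3, had 1.04 RPKM in pkl replicate 1 and 0.418 RPKM in pkl replicate 3. It was listed at 0 in pkl replicate 2 and in all nrpd1, nrpe1 and WT libraries. The part of the tissues of these genes in the values below was not tested. In whole seedlings, fewer cells of a type and less RNA per cell cannot be told apart. The labels number the libraries but do not say from which plants each was made, so p-values measure the spread between these libraries only.

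The genes lie on 4 chromosomes (RefSeq annotation of TAIR10.1). NRPD1 is at chr1:23354685-23362589 on the minus strand with 18 coding exons, and NRPE1 at chr2:16714460-16723718 on the plus strand with 17. NRPD2 is at chr3:8567572-8574209 on the minus strand, and NRPD4 at chr4:9040683-9042129 on the plus strand. NRPE5 is at chr3:21125725-21128075 on the plus strand, where its end overlaps 112 bases of AT3G57072 on the opposite strand, a gene listed at or below 0.373 RPKM in every library. NRPD7 at chr3:8115065-8116253 (plus strand) and NRPE7 at chr4:8406247-8407896 (minus strand) each have 1 coding exon.

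NRPD1 and NRPE1 share with NRPB1, the largest subunit of Pol II, the catalytic site that binds magnesium through aspartates. The coding sequence around it is shown because these are the genes mutated in nrpd1 and nrpe1, and the comparison of their transcripts is the main result. Capitals mark the 3 aspartate codons, and each stretch of 60 bases lies within 1 exon (chr1:23359156-23359215, minus strand; chr2:16717441-16717500, plus strand; chr4:16965685-16965744, minus strand).
NRPD1: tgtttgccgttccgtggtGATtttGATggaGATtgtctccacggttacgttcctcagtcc
NRPE1: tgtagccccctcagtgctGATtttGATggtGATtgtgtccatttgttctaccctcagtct
NRPB1: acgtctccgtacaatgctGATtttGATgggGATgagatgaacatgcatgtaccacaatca
Of the distinct 50-base words in the exons, 0 of 4414 in NRPD1, 0 of 5564 in NRPB1 and 6 of 5764 in NRPE1 occurred elsewhere in the genome, so reads of the largest subunits could be assigned to their own gene. The table gives a single value per gene, so it does not show which stretch of NRPD1 or NRPE1 the reads of the mutants came from.

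Per length, the transcripts of the largest subunits were the rarest of the set. Averaged over the 12 libraries, NRPD1 had 1.56 RPKM and NRPE1 1.71 RPKM, which placed them above 28.6% and 29.6% of the 25266 genes with any read. NRPD7, the seventh subunit of Pol IV, followed with 3.47 RPKM, and NRPD2, the shared second subunit, had 7.68 RPKM. NRPE7, the seventh subunit of Pol V, had 8.14 RPKM, NRPD4, the fourth subunit of both enzymes, had 12.1 RPKM, and NRPE5, the fifth subunit of Pol V, had 21.1 RPKM, 13.5 times the level of NRPD1. Per length, the Pol II subunits NRPB1, NRPB4 and NRPB5 were more abundant than their counterparts in all 12 libraries, whereas NRPB7 had 0.924 to 1.98 times the RPKM of NRPE7. Against NRPD7, NRPB7 was higher in all 12 libraries (lowest NRPB7 8.05 RPKM, highest NRPD7 4.88 RPKM). In WT, NRPB1 had 13.6 ± 2.52 times the RPKM of NRPD1 and 10.6 ± 0.396 times that of NRPE1 (SD, n = 3). NRPB4 had 4.17 ± 0.989 times the RPKM of NRPD4, NRPB5 3.00 ± 0.204 times that of NRPE5, and NRPB7 1.42 ± 0.250 times that of NRPE7 (SD, n = 3 each).

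**Figure D1:**
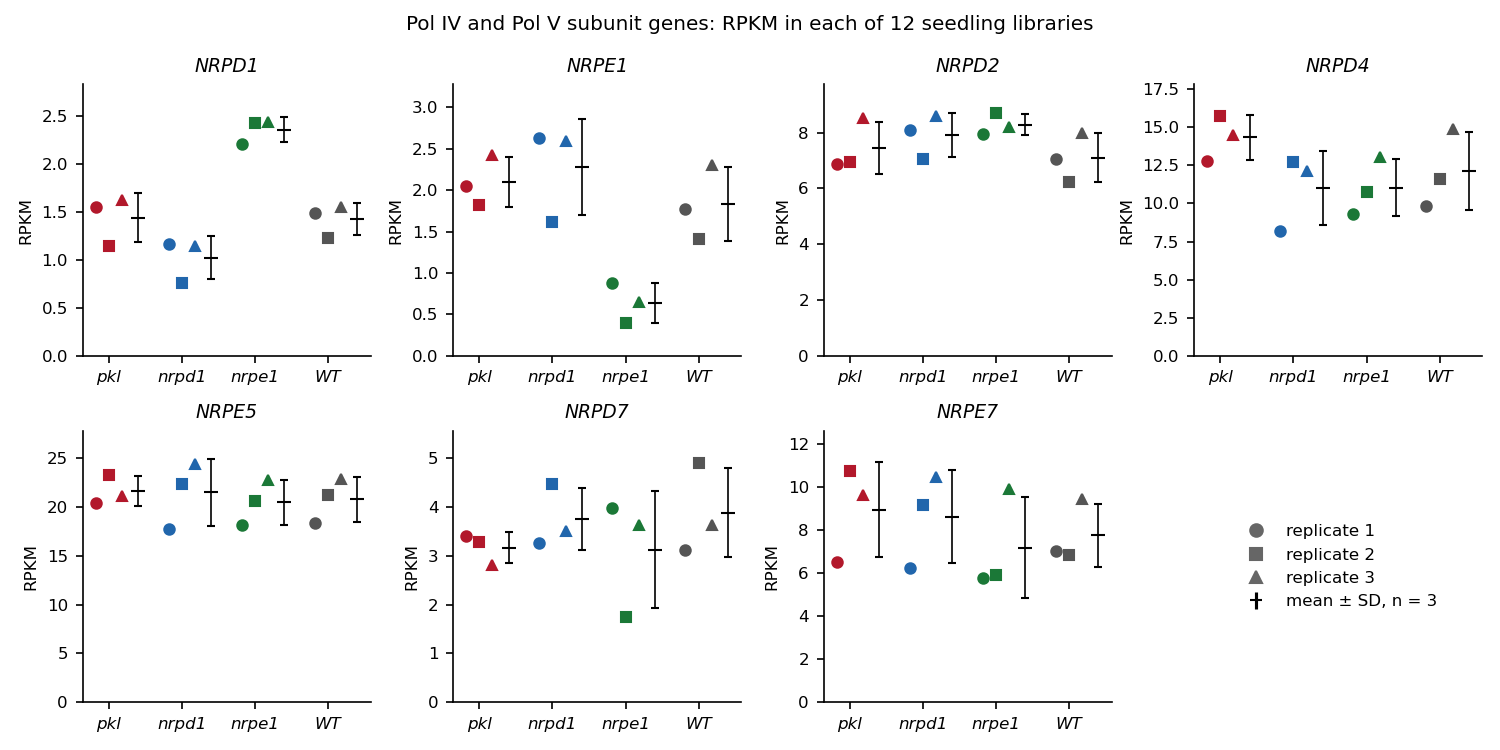
RPKM of the 7 genes in each of the 12 libraries, by genotype, with the symbol giving the replicate number and the black mark the mean ± SD (n = 3). NRPD1 in nrpe1 (2.21 to 2.44 RPKM) and NRPE1 in nrpe1 (0.394 to 0.874 RPKM) stand apart from the other genotypes, whereas the other 5 genes overlap between each mutant and WT.

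NRPD1, the catalytic subunit of Pol IV, had 1.55, 1.15 and 1.62 RPKM in pkl, 1.17, 0.764 and 1.15 RPKM in nrpd1, and 2.21, 2.42 and 2.44 RPKM in nrpe1, against 1.49, 1.23 and 1.55 RPKM in WT (replicates 1, 2 and 3). The order of the means was nrpe1, pkl, WT and nrpd1. The nrpe1 libraries lay above all others and the nrpd1 libraries below all WT libraries, whereas pkl and WT overlapped. These values rest on 86 to 237 reads per library. A transcript was therefore still counted in nrpd1, at 73.1% of the WT level on the log2(RPKM + 0.1) scale used for all tests. That difference was -0.45 (SE 0.21; limma, unadjusted p = 0.0549, adjusted p = 1), and the one in nrpe1 was 0.69 (SE 0.21; unadjusted p = 0.00729, adjusted p = 0.687). Neither passed the threshold used throughout, an adjusted p under 0.05 over all 23669 features tested together with a log2 fold change of 1 or more in either direction.

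NRPE1, the catalytic subunit of Pol V, had 2.05, 1.83 and 2.43 RPKM in pkl, 2.63, 1.62 and 2.59 RPKM in nrpd1, and 0.874, 0.394 and 0.655 RPKM in nrpe1, against 1.77, 1.42 and 2.30 RPKM in WT. All 3 nrpe1 libraries lay below every other library, and the other genotypes overlapped, with means in the order nrpd1, pkl and WT. In nrpe1 the gene was counted with 92, 18 and 76 reads, against 202, 137 and 284 reads in WT. The difference of nrpe1 from WT was -1.41 (SE 0.29; limma, unadjusted p = 0.000605, adjusted p = 0.117), with a 95% interval of 0.240 to 0.591 times the WT level. With the replicate number as a block it passed the threshold at the same size (limma, adjusted p = 0.00765). Without nrpe1 replicate 2, the shallowest library, it was -1.14 (adjusted p = 0.422).

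The nrpd1 and nrpe1 libraries differed from each other in both genes, by the direct comparison of the mutants. NRPD1 was lower in nrpd1 by a log2 fold change of -1.15 (SE 0.21; limma, adjusted p = 0.0375), and NRPE1 was higher in nrpd1 by 1.71 (SE 0.29; adjusted p = 0.0263). Hence 2 of the 7 genes, those mutated, were called in this comparison, where 0.613% of all features were. Both calls were close to the threshold. Without nrpd1 replicate 1, 2 or 3 the adjusted p of NRPD1 was 0.0660, 0.132 and 0.0817, and without nrpe1 replicate 1, 2 or 3 it was 0.104, 0.157 and 0.160. The call of NRPE1 was lost without nrpd1 replicate 1 (0.116) or 3 (0.126) and without nrpe1 replicate 2 (0.107) or 3 (0.103). The direction was the same in each of these.

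A ratio of both genes within a library is free of the scaling between libraries. The mutated gene is the denominator in nrpd1 and the numerator in nrpe1, so the ratios of these mutants include the change of the mutated gene itself. NRPE1 had 1.32, 1.59 and 1.495 times the RPKM of NRPD1 in pkl, 2.26, 2.12 and 2.26 times in nrpd1, and 0.396, 0.162 and 0.269 times in nrpe1, against 1.18, 1.15 and 1.49 times in WT. The nrpd1 libraries all lay above and the nrpe1 libraries all below WT, whereas pkl and WT overlapped. In nrpd1 the ratio was 1.75 times that of WT, a log2 difference of 0.80, and in nrpe1 it was 0.204 times that of WT, a log2 difference of -2.29. Between nrpd1 and nrpe1 the ratio differed 8.55-fold (log2 3.10). Each of these 3 comparisons gave p = 0.1 in an exact two-sided permutation test, the smallest that 3 against 3 libraries allow, and 0.133 after adjustment over the 4 comparisons made. The pkl libraries differed from WT by a log2 of 0.21 (exact permutation p = 0.2, adjusted p = 0.2). The replicate numbers were also taken to pair the libraries, which the labels do not state. Within these numbers, pkl was above WT in 3 of 3 pairs, by a log2 of 0.0062 to 0.47. In the same way nrpd1 was above WT in 3 of 3, and nrpe1 was below WT in 3 of 3. An exact paired permutation test gave p = 0.25 for each comparison, the smallest that 3 pairs allow. The 95% counting intervals of the 3 nrpd1 libraries began at 1.65 or above, and those of the 3 nrpe1 libraries ended at 0.507 or below. Such intervals cover counting error only.

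**Figure D2:**
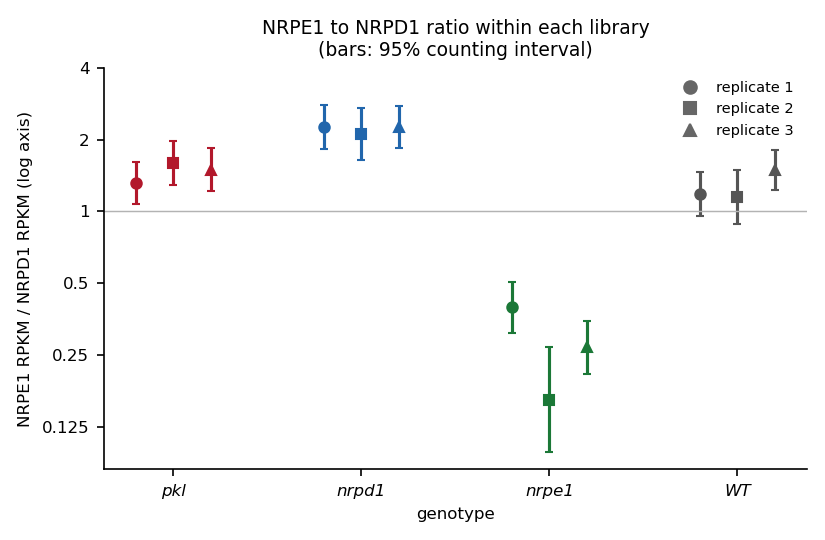
NRPE1 RPKM divided by NRPD1 RPKM in each of the 12 libraries, on a log axis, with bars for the 95% counting interval of the library's reads. The nrpd1 libraries sit at 2.12 to 2.26, the nrpe1 libraries at 0.162 to 0.396, and the pkl libraries (1.32 to 1.59) overlap with those of WT (1.15 to 1.49).

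NRPD2, the second largest subunit that Pol IV and Pol V both need, had 6.88, 6.93 and 8.53 RPKM in pkl, 8.09, 7.04 and 8.61 RPKM in nrpd1, and 7.94, 8.69 and 8.20 RPKM in nrpe1, against 7.07, 6.24 and 7.98 RPKM in WT. All genotypes overlapped with WT. The log2 differences from WT were 0.07 in pkl, 0.16 in nrpd1 and 0.23 in nrpe1 (SE 0.14 each; limma, adjusted p = 0.907, 1 and 1). The intervals reached at most 1.45 times the WT level, in nrpe1. Its near copy NRPD2B was lower throughout: NRPD2 had 3.22 ± 0.519 times the RPKM of NRPD2B in pkl, 3.49 ± 0.446 in nrpd1 and 3.45 ± 0.211 in nrpe1, against 3.56 ± 0.380 in WT (SD, n = 3 each). Of the distinct 50-base words in the exons of NRPD2, 8.39% also occurred elsewhere in the genome, so a share of its reads could have been assigned to a copy.

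NRPD4, a subunit of both enzymes in place of the Pol II subunit NRPB4, had 12.8, 15.7 and 14.5 RPKM in pkl, 8.22, 12.7 and 12.1 RPKM in nrpd1, and 9.34, 10.7 and 13.0 RPKM in nrpe1, against 9.83, 11.6 and 14.9 RPKM in WT. The pkl mean was the highest, but the pkl and WT libraries overlapped and the difference of 0.26 (SE 0.21) had an adjusted p of 0.651 in limma. In nrpd1 and nrpe1 the differences from WT were -0.14 and -0.12 (adjusted p = 1 in both). NRPE5, which Pol V carries where Pol II and Pol IV carry NRPB5, lay between 17.7 and 24.4 RPKM over the 12 libraries, a 1.38-fold range and the narrowest of the 7 genes. Its differences from WT lay between -0.02 and 0.06, with intervals inside 0.789 to 1.299 times the WT level.

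The NRPD7 and NRPE7 subunits form a stalk with the fourth subunit and exist as separate copies for Pol IV and Pol V. NRPD7 had 3.40, 3.27 and 2.81 RPKM in pkl, 3.26, 4.45 and 3.51 RPKM in nrpd1, and 3.98, 1.75 and 3.61 RPKM in nrpe1, against 3.12, 4.88 and 3.62 RPKM in WT. The low value in nrpe1 rests on 9 reads, the fewest of any of the 7 genes, and the other libraries had 32 to 67. NRPE7 had 6.52, 10.7 and 9.64 RPKM in pkl, 6.26, 9.18 and 10.5 RPKM in nrpd1, and 5.78, 5.91 and 9.91 RPKM in nrpe1, against 7.03, 6.83 and 9.45 RPKM in WT. Neither gene separated a mutant from WT. The log2 differences from WT were -0.26 in pkl, -0.04 in nrpd1 and -0.36 in nrpe1 for NRPD7, and 0.19, 0.13 and -0.14 for NRPE7 in the same genotypes (limma, adjusted p from 0.770 to 1). Their precision was the lowest among the small subunits, and the interval of NRPD7 in nrpe1 ran from 0.501 to 1.21 times the WT level.

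NRPD4, NRPE5 and NRPE7 shared a pattern by replicate number across the genotypes. Replicate 1 was the lowest of the 3 libraries in 4 of 4 genotypes for NRPD4 and for NRPE5, and in 3 of 4 for NRPE7. On the log2 scale it differed from replicates 2 and 3 by a mean of -0.40 for NRPD4, -0.26 for NRPE5 and -0.47 for NRPE7, averaged over the genotypes. For NRPD1 and NRPE1 the same mean was 0.11 and 0.24. The pattern was not particular to these genes. Among other subunit genes, chosen after their values were seen, replicate 1 was also lowest in every genotype for RPB5D and NRPB12. It was highest in every genotype for NRPB8B. The share of all features with such a pattern was not counted. Pearson correlations of log2(RPKM + 0.1) were taken over the 12 libraries, which share these replicate numbers. NRPE5 had a correlation of 0.83 with NRPE7 and of 0.82 with NRPD4, and NRPD4 had one of 0.78 with NRPE7. NRPD1 and NRPE1 had a correlation of -0.69, to which the mutants of the genes themselves contribute.

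**Figure D3:**
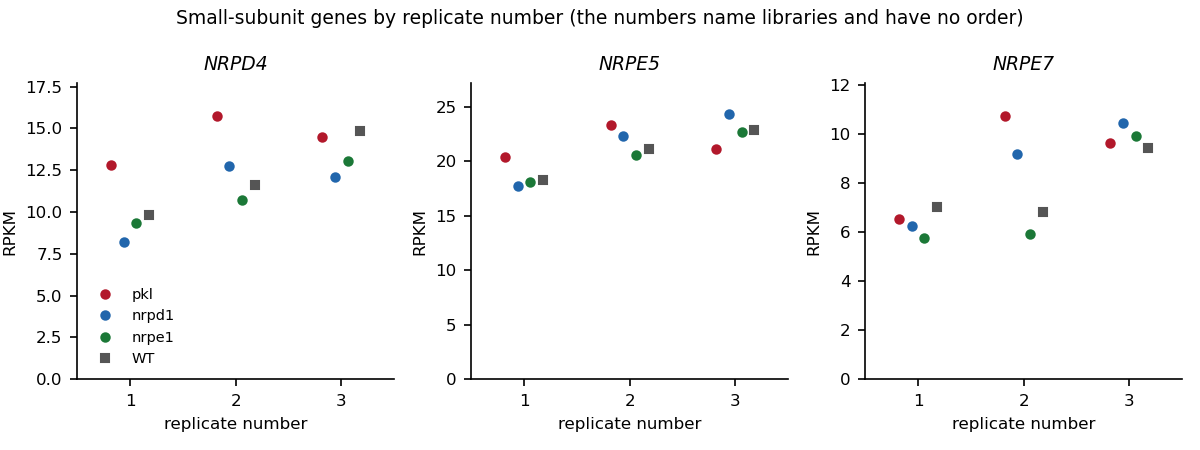
RPKM of NRPD4, NRPE5 and NRPE7 by replicate number, with a point for each genotype. Replicate 1 sits at the low end of each genotype, except for NRPE7 in WT, where replicate 2 (6.83 RPKM) is below replicate 1 (7.03 RPKM).

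Over the 7 genes, limma called 0 in pkl, 0 in nrpd1 and 0 in nrpe1 against WT. At an unadjusted p under 0.05 there were 0, 0 and 2, and voom on the reads recovered from the table also called 0, 0 and 0. Of all features, 1.9% were called in pkl, 0.972% in nrpd1 and 0.435% in nrpe1, so a set of this size would hold few calls. With the replicate block, limma called 1 of the 7 in nrpe1, NRPE1, and 0 in pkl and in nrpd1. In pkl, 0 of the 7 genes had libraries apart from those of WT, where 22% of all features did. NRPD1 was the only one of the 7 that did so in nrpd1 (8.63% of all features), and NRPD1 and NRPE1 did so in nrpe1 (7.02%). Between nrpd1 and nrpe1 the same pair lay apart (5.45%). The median log2 fold change of the 7 genes was 0.07 in pkl, 0.04 in nrpd1 and -0.12 in nrpe1, beside 0.07, 0.04 and 0.01 for all features. The widest interval of the 7 in pkl was that of NRPE1, from 0.735 to 1.81 times the WT level, and differences inside these intervals were not detectable with 3 libraries.

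**Figure D4:**
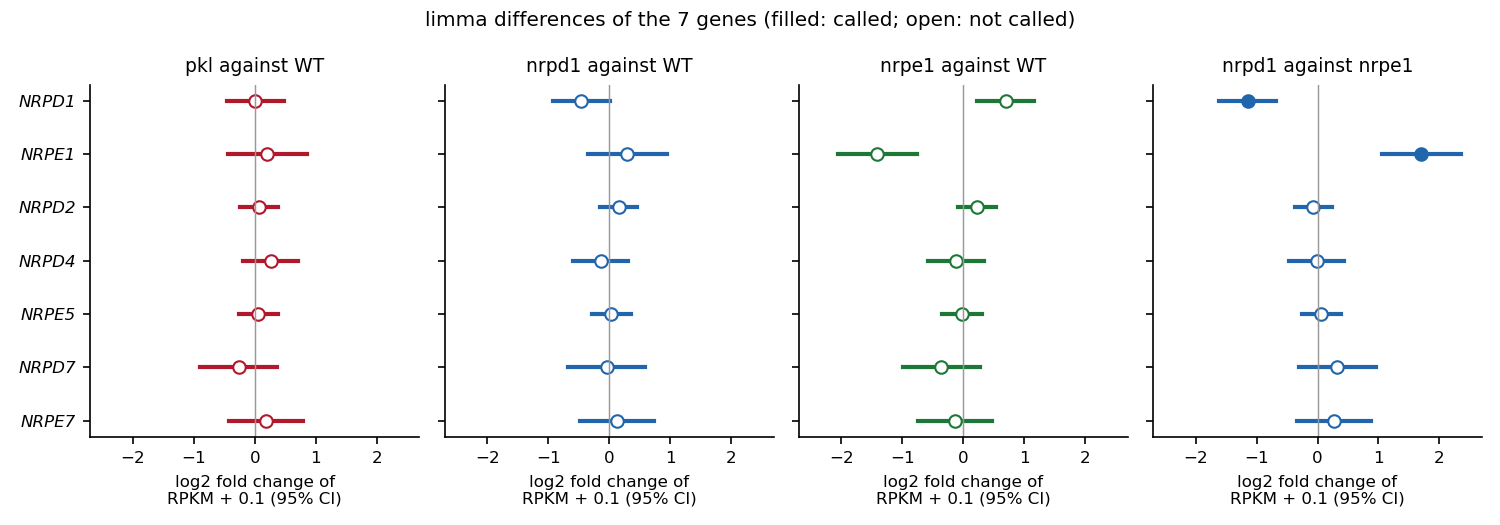
Log2 fold change of RPKM + 0.1 with its 95% interval from limma for each gene in the 4 comparisons, filled where called. In pkl all intervals include 0, and the filled points are NRPD1 (-1.15) and NRPE1 (1.71) between nrpd1 and nrpe1.

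The genes most like NRPD1 and NRPE1 over the 12 libraries were looked up among 19085 genes with a mean of at least 1 RPKM. For NRPD1 they were AT1G67105, AT4G03156 and AT3G32240, with Pearson correlations of 0.83, 0.82 and 0.81. AT4G03156 and AT3G32240 were listed at 0 in all 9 pkl, nrpd1 and WT libraries and had 6.44 to 11.7 and 8.03 to 9.48 RPKM in nrpe1. Both thus reached the mean of 1 RPKM through nrpe1 alone, where NRPD1 was also highest, and their likeness rests on that genotype. For NRPE1 they were MAP1B, MRD1 and AT1G62630, with 0.90, 0.88 and 0.88. MRD1 had 1.53 to 2.44 RPKM in nrpe1 and 25.3 RPKM or more in every other library. AT1G62630 had at most 2.45 RPKM in nrpe1 and 4.34 RPKM or more in every other library. The likeness of MRD1 and AT1G62630 thus goes with nrpe1, where NRPE1 is mutated and was lowest. MAP1B in nrpe1 (9.78 to 12.4 RPKM) overlapped with the other genotypes only through replicate 1 (12.38 RPKM), against 12.36 RPKM in WT replicate 1. All other libraries outside nrpe1 had 12.655 RPKM or more. The highest correlation with another of the 7 genes was 0.47 for NRPD1 and 0.37 for NRPE1. All these values come from the same 12 libraries and include the mutants of the genes.

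The other subunits of Pol II, Pol IV and Pol V are encoded by 23 genes, including copies of several small subunits, and 22 of them were tested. In pkl 2 of these were called higher and 0 lower, where 0.984% of all features were called higher. The median log2 fold change was 0.15, beside 0.07 for all features. All pkl libraries lay above WT in 6 of the 22, and in 14.3% of all features. NRPE3B, a form of the third subunit found in Pol V, had 2.40, 2.33 and 2.73 RPKM in pkl, against 0.793, 0.702 and 0.846 RPKM in WT, on 61 to 70 reads in pkl and 15 to 23 reads in WT. It rose by 1.55 on the log2 scale (SE 0.25; limma, adjusted p = 0.00868), and was called in 13 of 14 alternative settings, the exception being a pseudocount of 1 (0.97, adjusted p = 0.00191). NRPB9A, a form of the ninth subunit that the polymerases share, had 3.03, 2.98 and 2.11 RPKM in pkl, against 1.09, 1.63 and 0.915 RPKM in WT. It rose by 1.12 on the log2 scale (SE 0.24; limma, adjusted p = 0.0349), on 10 to 36 reads per library, and was called in 7 of 14 alternative settings. That call was lost without pkl replicate 1 (adjusted p = 0.109) or 2 (0.142) and without WT replicate 1 (0.121) or 3 (0.110). The gene overlaps AT3G16990 on the opposite strand over 705 bases, a gene with 9.66 to 10.4 RPKM in pkl and 8.44 to 9.81 RPKM in WT, and the use of strand in counting is not given in the sources used here.

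RPB5D, a copy of the fifth subunit chosen for mention after its values were seen, had 11.1, 14.5 and 15.1 RPKM in pkl, against 5.28, 7.07 and 8.86 RPKM in WT. All 3 pkl libraries lay above WT, and its log2 difference of 0.95 (SE 0.22; limma, adjusted p = 0.0431) fell short of the fold threshold. AT2G41342, on the opposite strand over 523 bases, was at or below 0.952 RPKM in every library. For NRPE5, the Pol V copy, the interval in pkl was 0.833 to 1.299 times the WT level. Nor was NRPB3, the third subunit that Pol II uses, called in pkl: its log2 difference was 0.05 (SE 0.17; adjusted p = 0.956).

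NRPE3B and NRPB3 lie on chromosome 2 with coding sequences of 960 bases each, identical at 878 positions (91.5%). The starts of both are shown, since reads must tell the pair apart for the values above, and capitals mark the 6 positions of the first 90 that differ (chr2:6713022-6713111 and chr2:6733661-6733750, both plus strand).
NRPE3B: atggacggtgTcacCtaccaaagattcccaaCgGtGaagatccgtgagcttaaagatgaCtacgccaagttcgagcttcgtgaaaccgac
NRPB3: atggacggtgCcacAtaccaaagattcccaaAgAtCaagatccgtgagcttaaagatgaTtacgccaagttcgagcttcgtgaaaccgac
Of 1428 distinct 50-base words in the exons of NRPE3B, 35 (2.45%) occurred elsewhere in the genome. NRPB3 had 18.6 ± 1.62 RPKM in pkl and 18.2 ± 3.45 RPKM in WT (SD, n = 3 each), so NRPE3B remained the rarer copy in pkl.

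**Figure D5:**
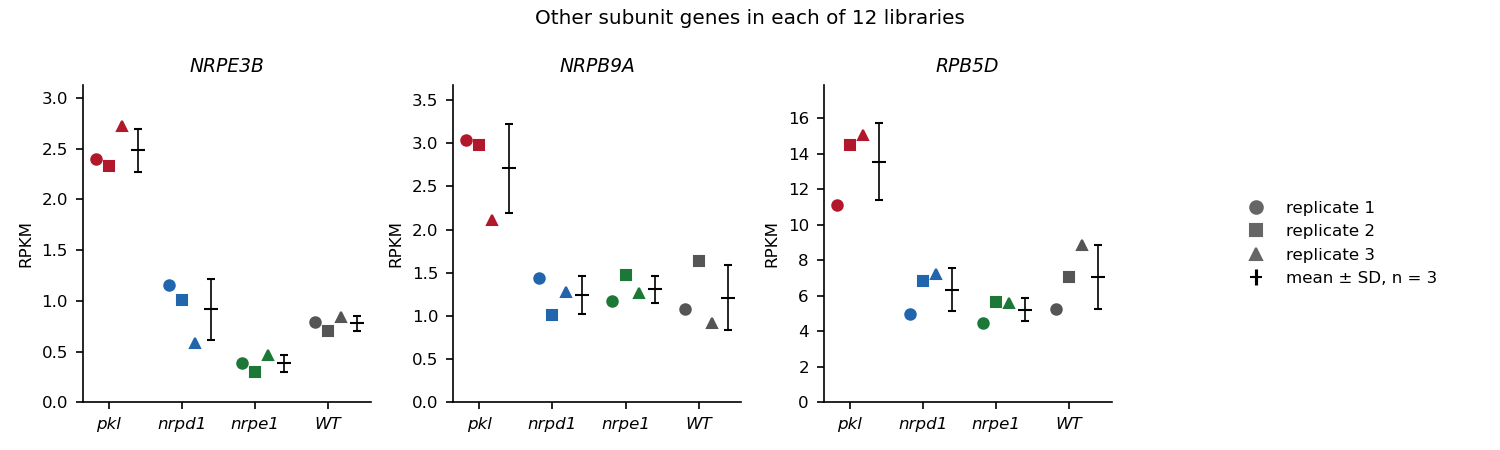
RPKM of NRPE3B, NRPB9A and RPB5D in each library by genotype, with the replicate number as symbol and the mean ± SD (n = 3) in black. The pkl libraries lie above all others in each gene, and for NRPE3B the nrpe1 libraries (0.297 to 0.469 RPKM) lie below all WT libraries (0.702 to 0.846 RPKM).

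In nrpd1, in nrpe1 and between these mutants, limma called 0 of the 22 other subunit genes in each comparison, with 1 gene each at an unadjusted p under 0.05, and voom called 0 in each. The gene in nrpe1 was NRPE3B, at 0.387, 0.297 and 0.469 RPKM in nrpe1 on 9, 3 and 12 reads, with a difference of -0.87 (SE 0.25; adjusted p = 0.592). In nrpd1 NRPE3B had 1.16, 1.01 and 0.583 RPKM, which overlapped with WT. The gene in nrpd1 was AT1G53690, a homologue of the twelfth subunit also chosen after its values were seen, with 8, 13 and 2 reads in nrpd1, against 2, 0 and 1 reads in WT (adjusted p = 0.855). Of the largest and second largest subunits of RNA polymerases I and III, 4 genes, limma and voom called 0 in every comparison, with 1 at an unadjusted p under 0.05 by limma in pkl and 0 in the others. Their median log2 difference from WT was 0.38 in pkl, 0.29 in nrpd1 and 0.34 in nrpe1, beside 0.07, 0.04 and 0.01 for all features. All 4 were positive in each mutant, as were 60.4%, 59% and 51.4% of all features. With the replicate block limma also called 0, with 3, 1 and 2 of the 4 at an unadjusted p under 0.05. The share of all features at that p with the block was not counted.

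The proteins that work beside Pol IV and Pol V in RdDM were examined as a list of 22 genes, which includes the small RNA machinery (RDR2, DCL3, HEN1), the ARGONAUTE genes and the remodelers of the CLSY and DRD1 groups. AGO9, an ARGONAUTE known from reproductive tissue, was called higher in pkl, 1 of the 22 genes, where 0.984% of all features were. All pkl libraries lay above WT in 8 of the 22, beside the 14.3% of all features. AGO9 had 0.365, 0.339 and 0.394 RPKM in pkl, against 0.0552, 0.109 and 0.0853 RPKM in WT, on 19 to 22 reads in pkl and 3 to 5 reads in WT. It rose by 1.36 on the log2 scale (SE 0.29; limma, adjusted p = 0.0324), and the adjusted p was 0.0778 to 0.124 without any single library of pkl or WT. Its WT values are near the 0.1 added before the log, and the log2 difference ran from 0.34 with a pseudocount of 1 to 2.08 with voom and the replicate block. It was called in 6 of 14 alternative settings. AGO9 also lay above all WT libraries in nrpd1, at 0.161, 0.125 and 0.207 RPKM on 8 to 13 reads, and was not called there. In nrpe1 its libraries overlapped with those of WT. In nrpd1 and in nrpe1 limma and voom called 0 of the 22, with 1 at an unadjusted p under 0.05 by limma in each. That gene was CLSY1, a remodeler that works with Pol IV, chosen for mention after its values were seen. It had 4.19, 4.37 and 4.50 RPKM in pkl, 4.78, 5.38 and 6.62 RPKM in nrpd1, and 4.52, 6.12 and 5.31 RPKM in nrpe1, against 3.42, 2.60 and 3.56 RPKM in WT. Every mutant library lay above every WT library, with log2 differences of 0.45 in pkl, 0.79 in nrpd1 and 0.72 in nrpe1 (SE 0.18 each; limma, adjusted p = 0.242, 0.0851 and 0.299). With the replicate block the adjusted p in nrpd1 was 0.0401, still under the fold threshold. These 3 comparisons share the WT libraries. Of the 23669 features tested, all nrpd1 libraries lay above WT in 1205 and all nrpe1 libraries in 971. NRPB9B, a form of the ninth subunit chosen after its values were seen, also had every mutant library above every WT library. In pkl its lowest value was 8.818 RPKM, against a highest of 8.817 RPKM in WT.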

How the data were processed

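The authors sequenced stranded paired-end mRNA libraries (CASAVA 1.8), trimmed low-quality bases (Trim Galore 0.4.0), aligned to TAIR10 and counted reads over genes and transposable elements (TEs) with Subread 1.5.1, and tested with edgeR. The handling of reads with several positions and the use of strand are not given in the sources used here. The authors deposited RPKM for 33602 genes and 31189 TEs. RPKM divides by the library total, so abundant transcripts shift all other values.

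Values of a feature differ in steps of a single read, so reads were recovered for 100% of features above 0 (within 0.01 of a whole number). Tested on simulated data, the recovery returned every read number of 99.8% of 27201 features.

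Tests covered the 23669 features that reached 0.1 RPKM in 3 or more of the 12 libraries, with limma 3.58.1 (R 4.3.3) on log2(RPKM + 0.1), which understates changes of low genes, with a mean per genotype and Benjamini-Hochberg adjustment over all features. On simulated data for pkl against WT, limma called 99 of 100 features raised and 99 of 100 lowered 4-fold, and 9 of 23513 unchanged ones. The changed features left out those with few reads on average, and the simulation used a fixed spread and no effect of replicate number. These counts therefore do not give the power for genes with few reads or for smaller changes. Within-library ratios were compared by exact permutation tests (scipy 1.17.1). Sequences and the search for repeated words of 50 bases used the RefSeq genome TAIR10.1.

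Genotypes and replicate numbers came from the labels. Deviations from the genotype means correlated above 0.1 in 18 of 18 pairs of libraries with the same number (0.15 to 0.60, median 0.32). For different numbers the correlations ran from -0.48 to 0.23 and exceeded 0.1 in 10 of 36 pairs, all of a replicate 2 with a replicate 3. The numbers were taken to pair the libraries, which these values bear out for replicate 1 but less for replicate 2 against replicate 3. The fit without the block was the main one, as chosen with the design. The 7 genes and the gene lists were chosen with earlier results of these data known. Named are the 7 genes, list genes called in any comparison, the Pol II homologues, the 3 genes most like NRPD1 and NRPE1, and genes said to be chosen later.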

Additional observations from a re-analysis of the deposited data

Results flagged for a closer look

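NRPD1 and NRPE1, the genes mutated in nrpd1 and nrpe1, stood out because they differed between these mutants by a direct test. The log2 fold changes in nrpd1 against nrpe1 were -1.15 for NRPD1 and 1.71 for NRPE1 (limma, adjusted p = 0.0375 and 0.0263). Each of these sets a gene in its own mutant against the other mutant. Against WT, NRPD1 was lower in all nrpd1 libraries (-0.45) and higher in all nrpe1 libraries (0.69), and neither difference was called.

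NRPE3B had every pkl library above WT (1.55, called) and every nrpe1 library below WT (-0.87; limma, adjusted p = 0.592, not called). The difference between pkl and nrpe1 was not tested.

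COBL9 was above WT in every pkl library (0.34; limma, adjusted p = 0.589, not called) and below WT in every nrpd1 library (-2.58). The difference between pkl and nrpd1 was not tested.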

How the results depend on the processing

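Calls among the 7 genes stayed at 0 in pkl and in nrpd1 under all 14 alternatives. In nrpe1 the count of 0 became 1 with the replicate block and 1 with voom and the block together, an alternative chosen after seeing the data, and stayed at 0 without any single library. Between nrpd1 and nrpe1 the count of 2 became 1 with a pseudocount of 0.01 or no filter, 0 with a pseudocount of 1 or the 6 libraries alone, and 0 to 1 without single libraries. A pseudocount of 1 shrinks fold changes by its construction, and for the other losses the cause was not tested. Among the other subunit genes the count of 2 in pkl became 0 with a pseudocount of 1, 1 with median-ratio scaling or the 6 libraries alone, and 1 to 2 without single libraries. Between nrpd1 and nrpe1 it was 0 to 1 without single libraries. Over all features the calls ran from 248 to 1085 in pkl (449 as reported, 829 with the block), 110 to 360 in nrpd1 (230), 72 to 154 in nrpe1 (103) and 6 to 243 between nrpd1 and nrpe1 (145). The replicate block changed no other call among the genes named. The log2 difference of the NRPE1 to NRPD1 ratio kept its direction in all 8 alternatives of each comparison, among them the pairing by replicate number, also chosen after seeing the data. Small differences of uncalled genes changed sign. With median-ratio scaling NRPD1, NRPD2 and NRPE5 in pkl became -0.068, -0.011 and -0.023, and NRPE5 in nrpd1 became -0.0069. With voom NRPD1 in pkl became -0.013. Without single libraries the range in pkl was -0.087 to 0.15 for NRPD1, -0.032 to 0.16 for NRPD2 and -0.031 to 0.13 for NRPE5. In nrpd1 it was -0.28 to 0.057 for NRPD4, -0.058 to 0.17 for NRPE5, -0.18 to 0.14 for NRPD7 and -0.0196 to 0.35 for NRPE7. In nrpe1 it was -0.26 to 0.034 for NRPD4, -0.11 to 0.064 for NRPE5 and -0.39 to 0.0087 for NRPE7. Between nrpd1 and nrpe1 it was -0.13 to 0.013 for NRPD2, -0.13 to 0.18 for NRPD4, -0.037 to 0.19 for NRPE5 and -0.032 to 0.54 for NRPD7. Among the 7 genes the least precise values are those of NRPE1 (18 reads) and NRPD7 (9 reads) in nrpe1 replicate 2. Of the other genes named, few reads also underlie NRPE3B in nrpe1 (3 to 12 reads), NRPB9A in nrpe1 (6 to 13), AGO9 in WT (3 to 5) and AT1G53690 in WT (0 to 2).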
